A study of Mus musculus with 18 samples.

Results

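Skin treated with household laundry detergent B was compared with skin treated with detergent A, gene by gene. The comparison set 6 libraries with detergent B against 6 with detergent A, for all 16836 genes with enough counts to be tested. The model was fitted to all 18 libraries of the series, so the PBS libraries share in the estimate of the spread. The mice were C57BL/6, aged 8 to 12 weeks, and the third group of 6 libraries, labelled PBS, received phosphate-buffered saline. Detergents are known in the labels only by their letters, and dose, duration, body site and the number of animals behind a library are not given, so p-values measure the spread between these libraries, which may be technical. The series set each detergent against PBS; the direct comparison asks whether the skin differed between the detergents themselves.

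Laundry detergents are mixtures built around surfactants, molecules that dissolve lipids and unfold proteins. The barrier they meet is the cornified layer, dead keratinocytes whose envelopes of cross-linked proteins are sealed by ceramides, cholesterol and fatty acids. Beneath it, tight junctions, desmosomes and basement membrane anchors hold living keratinocytes together. Keratinocytes under injury make stress keratins, protease inhibitors and cytokines of the IL-1, IL-36 and alarmin families, which call in immune cells.

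Between the detergents, 0 of 16836 genes (0%) differed at an adjusted p under 0.05 in edgeR's quasi-likelihood test with Benjamini-Hochberg adjustment, and the smallest adjusted p was 0.989. Against PBS in the same model, 514 genes (3.05%) passed that threshold with detergent B and 32 (0.190%) with detergent A. These counts differ, but the direct test of the difference between detergents, gene by gene, called no gene. At an unadjusted p under 0.05, 301 genes (1.79%) were higher and 249 (1.48%) lower with detergent B, 3.27% in all, fewer than the 5% of genes that this threshold allows. DESeq2, run without the low-count filter on 28040 genes, also called 0 genes at an adjusted p under 0.05. At an unadjusted p under 0.05 it had 405 higher and 365 lower, 2.75% of those genes. Limma with library weights, on the same 16836 genes as edgeR, called 0 as well, with 321 and 257 at an unadjusted p under 0.05. Fitted to the 12 detergent libraries alone, edgeR also called 0 at the adjusted threshold, with 189 higher and 128 lower at an unadjusted p under 0.05.

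In the fit to all libraries, the data limited how large a difference could have been missed. The intervals from this fit use a spread pooled with the PBS libraries. The median SD of log2 CPM was 0.210 with PBS, 0.274 with detergent A and 0.255 with detergent B. The intervals may thus be too narrow for the comparison of the detergents. Intervals from the detergent libraries alone are not given here. For 15066 genes (89.5%) the 95% interval of the difference lay inside a 2-fold change in either direction, and for 11330 (67.3%) it lay inside 1.5-fold. Among the 10824 genes with a mean of at least 10 CPM (read counts scaled to a common library size), 97.5% had an interval inside 2-fold. The median interval reached 1.24-fold to either side of its estimate. All genes and values below are therefore descriptions of levels and of estimates with their intervals, and no gene named here passed the adjusted threshold in the comparison of the detergents.

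**Figure D1:**
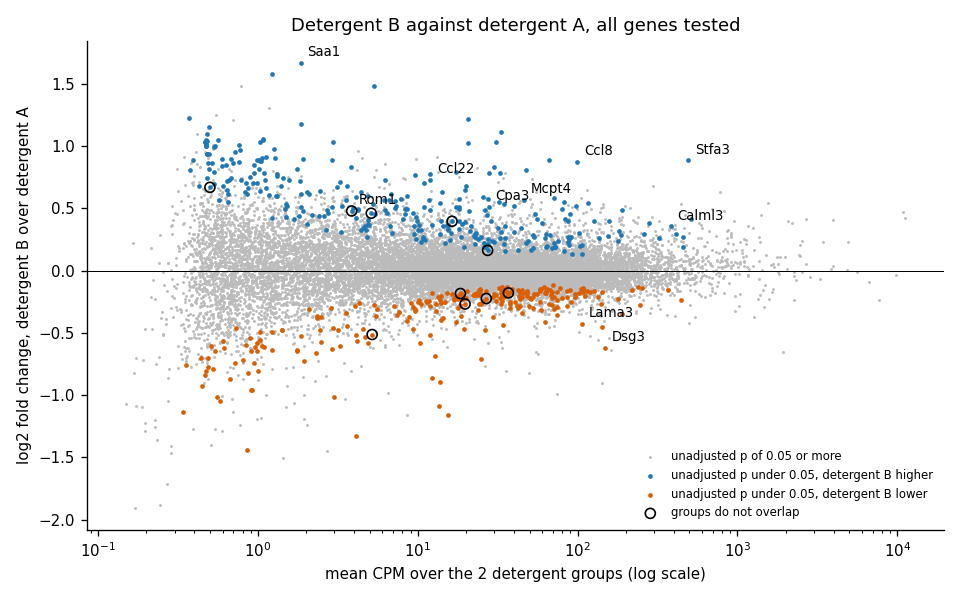
Log2 fold change of detergent B over detergent A (y axis) against the mean CPM of both groups (x axis, log scale) for the 16836 genes tested. Coloured points have an unadjusted p under 0.05 (blue higher and orange lower with detergent B) and circles mark the 10 genes whose groups do not overlap, and no gene passed at an adjusted p under 0.05.

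Depth was alike in the groups, with 17312623 to 29308184 counts per library. Defining markers of epidermis (Krt14, Krt10), dermis (Col1a1), fat (Adipoq), muscle (Ckm) and mast cells (Cpa3) were above 0 in all 12 libraries. The lowest value among them was 14.1 CPM, for Cpa3. Being above 0 does not by itself show a tissue. Alb of liver and Gfap of glia, set as absent in skin, were also above 0 in all 12, at up to 3.40 and 1.17 CPM. Ins2 of pancreas was at 0 in 11. The neutrophil markers Ngp and Ly6g were at 0 in 8 and 9 of the 12 libraries and at most 0.119 CPM in the others. S100a8, checked with them as a neutrophil marker, went the other way and was above 0 in all 12, at 1.96 to 145.8 CPM. CPM in this check used plain library totals. Hair genes separated libraries within both groups. The mean log2 CPM of 27 hair shaft genes was between 0.35 and 2.17 in detergent A replicates 1, 2 and 6 and detergent B replicates 1 and 3, and between -2.45 and -1.10 in the other 7. In whole skin, fewer cells of a type and less RNA per cell cannot be told apart.

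Gene lists were read by the share of members with a fold change above 0, which was 49.9% over all genes, and by their median log2 fold change, which was -0.00052 over all genes. Members were measured in the same 12 libraries and are not replicates of each other. In each account below, 3 CPM values in a row are the lowest, the median and the highest of the 6 libraries of a group.

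The cornified envelope genes leaned towards detergent B. Of 25 tested, 22 had a higher estimate with detergent B, with a median log2 fold change of 0.23. Among them 1, Calml3, had an unadjusted p under 0.05, where 1.79% of all genes were higher. Calml3 (ENSMUSG00000063130, GRCm38 chromosome 13, 3802896 to 3804316) encodes a calmodulin-like protein of stratified epithelium. It stood at 262, 346 and 399.5 CPM with detergent A and 341, 443 and 501 CPM with detergent B, a log2 difference of 0.35 (SE 0.12, 95% interval 0.09 to 0.61, unadjusted p = 0.0103). All 6 detergent B libraries lay above the detergent A mean, though the groups overlapped. With 1 library left out, the list median ranged from 0.14 (without detergent A replicate 2) to 0.36 (without detergent A replicate 3), and the count at an unadjusted p under 0.05 reached 6 of 25 without detergent A replicate 3. Against PBS, Calml3 was 0.71 (adjusted p = 0.0114) higher on the log2 scale with detergent B and 0.36 (adjusted p = 0.141) with detergent A.

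The classical envelope proteins showed the same order with wider intervals. Filaggrin (Flg), which bundles keratin filaments and is broken down to the skin's natural moisturising factor, had 642, 1260 and 1984 CPM with detergent A and 1411, 1797 and 2363 CPM with detergent B. The log2 difference was 0.54 (SE 0.28, 95% interval -0.05 to 1.13, unadjusted p = 0.0706). Loricrin (Lor), the most abundant envelope protein, had 213, 710.4 and 886 CPM against 596, 1001 and 1330.1 CPM, a difference of 0.63 (SE 0.30, 95% interval -0.0098 to 1.26, unadjusted p = 0.0532). In both genes the lowest library belonged to detergent A and the groups overlapped. Involucrin (Ivl), an early scaffold of the envelope, differed by 0.24 (SE 0.18, 95% interval -0.13 to 0.61, unadjusted p = 0.191). Caspase-14 (Casp14), the protease that helps to degrade filaggrin, differed by 0.40 (SE 0.20, 95% interval -0.02 to 0.82, unadjusted p = 0.0596), with all 6 detergent B libraries above the detergent A mean.

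Of 21 late cornified envelope (Lce) genes, small proteins cross-linked last into the envelope, 19 were higher with detergent B, with a median of 0.34. The Lce median ranged from 0.20 (without detergent B replicate 4) to 0.45 (without detergent A replicate 3). Lce6a was the only one with an unadjusted p under 0.05 in the fit to all libraries, and the count was between 0 (without PBS replicate 2) and 3 (without detergent A replicate 3) with 1 library left out. Lce6a was at 32.9, 92.98 and 99.9 CPM with detergent A and 88.9, 110.3 and 171 CPM with detergent B. Its log2 difference was 0.52 (SE 0.24, 95% interval 0.01 to 1.02, unadjusted p = 0.0442). Lce3e, a member induced on barrier damage, was at 5.35, 33.2 and 83.1 CPM and 13.9, 33.8 and 70.9 CPM, and the detergent B range lay inside the detergent A range. Its difference of 0.02 had an interval of -1.06 to 1.102. The small proline-rich (Sprr) genes, envelope cross-bridges that increase in irritated skin, had a median of 0.16 and none of 14 reached an unadjusted p under 0.05. Against PBS their medians were 2.12 with detergent B and 1.99 with detergent A. Sprr2d, with 7.97, 37.6 and 87.6 CPM against 21.9, 47.9 and 122 CPM, differed by 0.45 (SE 0.49, 95% interval -0.59 to 1.48, unadjusted p = 0.376), and Sprr4 by 0.28 (SE 0.16, 95% interval -0.06 to 0.62, unadjusted p = 0.0955). Without detergent B replicate 2 the Sprr median was -0.16, and without detergent A replicate 1 it was 0.41, so its direction rested on single libraries.

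Barrier lipid genes had estimates near 0 with narrow intervals. Of 30 ceramide and barrier lipid genes, 0.04 was the median log2 difference, none had an unadjusted p under 0.05, and all 30 intervals lay inside 2-fold, 27 of them inside 1.5-fold. Of 24 cholesterol synthesis genes, with a median of -0.01, 23 lay inside 1.5-fold. Hmgcs1, an early enzyme of cholesterol synthesis, had 380, 461 and 624.8 CPM with detergent A and 369.8, 479 and 553 CPM with detergent B, and the difference was -0.02 (SE 0.15, 95% interval -0.33 to 0.29, unadjusted p = 0.895). Degs2, which makes phytoceramide, differed by 0.36 (SE 0.27, 95% interval -0.21 to 0.92, unadjusted p = 0.203). Against PBS its log2 difference was 1.898 (adjusted p = 0.00845) with detergent B and 1.54 (adjusted p = 0.0392) with detergent A, the one barrier gene named here past the threshold with both. The ceramide gene with the smallest p was Sgms1, a sphingomyelin synthase, at -0.20 (SE 0.14, 95% interval -0.49 to 0.08, unadjusted p = 0.154). Of 13 phospholipases A2, enzymes that release fatty acids from phospholipids, the median was 0.06, and Pla2g5 had the smallest p, 0.166.

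Estimates for Krt1 and Krt10 were higher with detergent B and those for Krt14 and the stress keratins lower, each with an interval that includes 0. Krt1, the main suprabasal keratin, had 5356, 7525 and 15093 CPM with detergent A and 7760.1, 12935 and 15909.6 CPM with detergent B, a log2 difference of 0.47 (SE 0.28, 95% interval -0.11 to 1.05, unadjusted p = 0.105). Its partner Krt10 differed by 0.42 (SE 0.27, 95% interval -0.13 to 0.98, unadjusted p = 0.128). The basal keratin Krt14 had 3447, 9162 and 12135 CPM and 3944, 7164 and 9235 CPM, with a difference of -0.24 (SE 0.28, 95% interval -0.83 to 0.35, unadjusted p = 0.405). All 4 stress keratins tested had negative estimates, with a median of -0.30, and none had an unadjusted p under 0.05. On the scale of mean log2 CPM per library the order was the opposite, 10.22 with detergent A and 10.27 with detergent B. Krt6a, made by wounded and hyperproliferative keratinocytes, had 156, 2194 and 4871 CPM against 387, 1235 and 2747 CPM, and Krt16 had 172, 2408 and 4840.2 CPM against 527, 2020.3 and 3222 CPM. The detergent B range lay inside the detergent A range for both. The differences were -0.66 (SE 0.61, 95% interval -1.95 to 0.63, unadjusted p = 0.298) for Krt6a and -0.24 (SE 0.60, 95% interval -1.49 to 1.01, unadjusted p = 0.695) for Krt16. Without detergent A replicate 1, the library with the highest stress keratin level, the median of the 4 was 0.07.

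Proteases and their inhibitors control shedding of the cornified layer. Of 21 kallikreins, related proteases and inhibitors, 15 were higher with detergent B, with a median of 0.11, which ranged from 0.05 (without detergent A replicate 2) to 0.20 (without detergent A replicate 3). Klk8, a kallikrein of the upper epidermis, had 169.5, 216 and 318 CPM with detergent A and 244, 279 and 346 CPM with detergent B. It differed by 0.30 (SE 0.14, 95% interval 0.01 to 0.58, unadjusted p = 0.0432), with all 6 detergent B libraries above the detergent A mean. Spink7, a serine protease inhibitor, had 6.76, 17.01 and 71.6 CPM against 13.97, 38.9 and 57.1 CPM, a difference of 0.41 (SE 0.58, 95% interval -0.80 to 1.62, unadjusted p = 0.485).

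Among the stefin A genes, inhibitors of cysteine proteases, Stfa3 (ENSMUSG00000054905, GRCm38 chromosome 16, 36450537 to 36455392) had the smallest p. It had 50.9, 112 and 222 CPM with PBS, 179, 333 and 584 CPM with detergent A and 400.1, 652 and 794 CPM with detergent B. The log2 difference between detergents was 0.88 (SE 0.31, 95% interval 0.23 to 1.54, unadjusted p = 0.0112), or 1.85-fold (95% interval 1.17 to 2.91), and each detergent B library was above the detergent A mean. Against PBS it was 2.35 (adjusted p = 0.00622) with detergent B and 1.47 (adjusted p = 0.0548) with detergent A. Of 6 stefins tested, 5 were higher with detergent B. Of 12 clade B serpins tested, 9 were higher, with a median of 0.15 that was 0.0072 without detergent B replicate 4. Only 1 of the 12, Serpinb3a, had an unadjusted p under 0.05. Serpinb3a, a serpin of the squamous epithelium, had 1.27, 2.14 and 5.14 CPM against 1.54, 7.53 and 17.8 CPM, with a difference of 1.49 (SE 0.52, 95% interval 0.39 to 2.58, unadjusted p = 0.0104). The groups overlapped for both genes. Both belong to families of near-identical copies, so their counts as single genes are uncertain.

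Adhesion genes leaned the other way. Of 11 genes that anchor basal cells to the basement membrane, all 11 were lower with detergent B, with a median of -0.24. Lama3 encodes a chain of laminin-332, the main adhesive protein under the epidermis. It had 89.9, 119.8 and 169 CPM with detergent A and 53.7, 92.04 and 118 CPM with detergent B, a difference of -0.43 (SE 0.17, 95% interval -0.77 to -0.08, unadjusted p = 0.0181), and each detergent B library fell short of the detergent A mean. Against PBS, Lama3 differed by -0.07 (adjusted p = 0.837) with detergent B and by 0.36 (adjusted p = 0.248) with detergent A. Leaving out 1 library at a time left between 0 (without detergent A replicate 1) and 6 (without detergent A replicate 6) of the 11 at an unadjusted p under 0.05. Without the latter library, 7.39% of all genes were at that threshold.

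Desmosomes are the junctions that rivet keratinocytes to each other. Of 15 desmosome genes, 10 were lower with detergent B, with a median of -0.08, and 3 cadherins were lower at an unadjusted p under 0.05, where 1.48% of all genes were. Dsg2 had 45.7, 50.2 and 57.4 CPM with detergent A and 27.6, 39.1 and 49.7 CPM with detergent B, a difference of -0.34 (SE 0.13, 95% interval -0.60 to -0.08, unadjusted p = 0.0146). Dsg3, the cadherin of the lower epidermis and the pemphigus antigen, had 79.9, 181 and 287 CPM and 60.1, 114 and 163 CPM, a difference of -0.62 (SE 0.26, 95% interval -1.17 to -0.08, unadjusted p = 0.02695). Dsc2 had 17.8, 27.3 and 56.5 CPM and 17.1, 21.8 and 27.6 CPM, a difference of -0.48 (SE 0.22, 95% interval -0.93 to -0.02, unadjusted p = 0.0399). All 6 detergent B libraries lay below the detergent A mean for each of the 3, and the ranges overlapped. Without detergent A replicate 1 the count fell to 1 of 15 and the difference of Dsc2 to -0.21. The desmosome median ranged from -0.17 (without detergent A replicate 6) to -0.0035 (without detergent A replicate 3).

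Of 21 tight junction genes, 15 were lower with detergent B, with a median of -0.08 that ranged from -0.11 (without detergent A replicate 1) to -0.03 (without detergent A replicate 4). Claudin-1 (Cldn1), the claudin required for the epidermal water barrier, had 329, 353 and 382 CPM with PBS, 356, 382 and 428 CPM with detergent A and 333, 339.8 and 392 CPM with detergent B. Its difference was small, -0.15 (SE 0.07, 95% interval -0.29 to -0.01, unadjusted p = 0.0344), a level with detergent B of 0.899-fold (95% interval 0.816 to 0.991) that with detergent A. The largest edgeR p of Cldn1 with 1 library left out was 0.0912. At an unadjusted p under 0.05, 1 of the 21 was lower in the fit to all libraries and 0 without detergent A replicate 3. In 5 of 6 detergent B libraries Cldn1 was below the detergent A mean. Occludin (Ocln) had 29.97, 35.2 and 38.1 CPM and 29.5, 33.3 and 40.4 CPM, and its difference of -0.05 had an interval of -0.23 to 0.14.

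**Figure D2:**
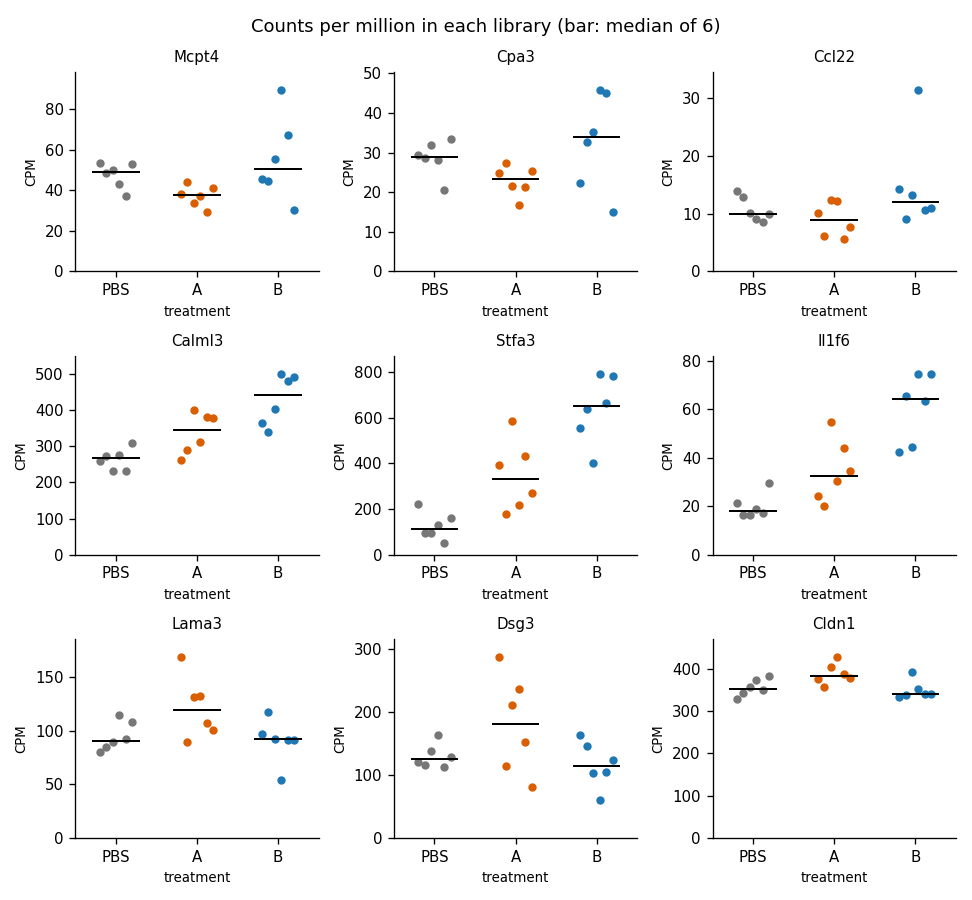
CPM of 9 genes (y axis, from 0) in each of the 18 libraries by treatment (x axis; PBS, detergent A, detergent B), with a bar at the median of 6 libraries. Stfa3, Il1f6 and Calml3 had their lowest median with PBS and their highest with detergent B. On this CPM scale, which is not log2, Lama3 and Dsg3 spread widest with detergent A. Detergent A and B overlapped for all 9 genes.

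Of the IL-1, IL-18 and IL-36 family, which starts inflammation in the epidermis, 9 of 16 were higher with detergent B, with a median of 0.03 whose sign changed in 6 of the fits that left out 1 library. Il1f6 (ENSMUSG00000026984, GRCm38 chromosome 2, 24215418 to 24225702), the gene of IL-36 alpha, a keratinocyte cytokine of psoriasis-like inflammation, was the member with the smallest p. It had 16.2, 18.1 and 29.7 CPM with PBS, 20.2, 32.6 and 54.7 CPM with detergent A and 42.3, 64.3 and 74.6 CPM with detergent B. The log2 difference between detergents was 0.81 (SE 0.22, 95% interval 0.34 to 1.27, unadjusted p = 0.00185), or 1.75-fold (95% interval 1.27 to 2.42). Each detergent B library exceeded the detergent A mean, but the ranges overlapped. Against PBS it was 1.61 (adjusted p = 0.00622) with detergent B and 0.81 (adjusted p = 0.0866) with detergent A. Over all alternatives that left out 1 library, its difference ranged from 0.69 to 0.98.

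Il1a, Il1b, Il33 and Tslp, other cytokines of the epidermis, had intervals that include 0. Il1a, released by damaged keratinocytes, had 24.4, 30.8 and 41.05 CPM with detergent A and 30.2, 36.2 and 52.1 CPM with detergent B, a difference of 0.26 (SE 0.15, 95% interval -0.05 to 0.56, unadjusted p = 0.0938). Il1b had 2.696, 6.34 and 59.9 CPM and 4.62, 7.91 and 32.5 CPM, a difference of -0.61 (SE 0.65, 95% interval -1.97 to 0.74, unadjusted p = 0.355). The highest Il1b value was detergent A replicate 1, and without it the difference was 0.26. The alarmin Il33 had 25.9, 196 and 314 CPM and 70.7, 102 and 232 CPM, a difference of -0.54 (SE 0.46, 95% interval -1.51 to 0.42, unadjusted p = 0.254), and both the lowest and the highest library belonged to detergent A. Tslp, the alarmin of atopic inflammation, had 1.61, 2.46 and 4.93 CPM and 1.302, 3.04 and 6.28 CPM, a difference of 0.33 (SE 0.39, 95% interval -0.48 to 1.14, unadjusted p = 0.403). Of 12 type 2 alarmins and receptors the median was -0.08, and 0.01 without detergent A replicate 1, and only Il2rg, the shared gamma chain of several cytokine receptors, had an unadjusted p under 0.05, at 0.27 (SE 0.11, 95% interval 0.05 to 0.49, unadjusted p = 0.0207).

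The list of type 2 effectors shares Mrc1 with the monocyte and macrophage list, and Cd209a and Mgl2 with the dendritic and Langerhans cell list. These lists are therefore not separate from each other. Of the 15 type 2 effector genes, 13 were higher with detergent B, with a median of 0.49, the highest of the 44 lists in this fit. With limma's library weights the median was 0.46, below 0.52 for monocyte and macrophage genes and 0.54 for inner root sheath genes. Against PBS the medians were 0.20 with detergent B and -0.26 with detergent A. Ccl8, a chemokine of macrophages, had 53.7, 91.2 and 155 CPM with PBS, 34.8, 66.6 and 121 CPM with detergent A and 70.8, 118 and 201 CPM with detergent B, a difference between detergents of 0.87 (SE 0.31, 95% interval 0.22 to 1.52, unadjusted p = 0.01103). Ccl22, which attracts T helper cells through CCR4, had 5.58, 8.94 and 12.3 CPM and 9.08, 12.1 and 31.4 CPM, a difference of 0.73 (SE 0.28, 95% interval 0.15 to 1.31, unadjusted p = 0.0163). Detergent B replicate 4 held the highest Ccl22 value, and without it the difference was 0.36. Ccl11, the eosinophil chemokine eotaxin, differed by 0.40 (SE 0.23, 95% interval -0.08 to 0.89, unadjusted p = 0.0999). Between 1 (without detergent B replicate 4) and 9 (without detergent A replicate 6) of the 15 had an unadjusted p under 0.05 when 1 library was left out, and without the latter library 7.39% of all genes did. The type 2 median ranged from 0.36 (without detergent A replicate 1) to 0.66 (without detergent A replicate 6).

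Neutrophil and acute phase genes split, with 8 of 17 higher with detergent B, a median of -0.09 (0.32 without detergent A replicate 1), 3 genes higher and 1 lower at an unadjusted p under 0.05. The serum amyloid A genes Saa1, Saa2 and Saa3, acute phase proteins made by epithelium and other cells in inflammation, were higher with detergent B. Saa1 had 0.424, 0.773 and 1.61 CPM with detergent A and 1.25, 2.02 and 7.57 CPM with detergent B, a difference of 1.67 (SE 0.49, 95% interval 0.64 to 2.696, unadjusted p = 0.00306). Saa2 differed by 1.58 (SE 0.56, 95% interval 0.41 to 2.74, unadjusted p = 0.0106) and Saa3, at 3.38, 9.43 and 25.5 CPM against 4.53, 23.5 and 57.2 CPM, by 1.22 (SE 0.56, 95% interval 0.04 to 2.39, unadjusted p = 0.0433). Saa1 and Saa2 are near-identical copies at low counts, and without detergent B replicate 5, the highest library for both, the differences were 1.08 and 1.11. Retnlg, a resistin-like gene of neutrophils, was lower with detergent B, at 0.106, 0.6797 and 3.21 CPM and 0.0723, 0.4298 and 0.868 CPM, a difference of -1.44 (SE 0.62, 95% interval -2.75 to -0.13, unadjusted p = 0.0328). Without detergent A replicate 4 that difference was -0.87, and the largest p with 1 library left out was 0.165. The calprotectin subunits S100a8 and S100a9 spread widely within both groups. S100a8 had 1.903, 14.3 and 75.1 CPM with detergent A and 7.695, 17.6 and 155 CPM with detergent B, a difference of 0.74 (SE 0.79, 95% interval -0.92 to 2.405, unadjusted p = 0.361), and S100a9 differed by 0.02 (SE 0.71, 95% interval -1.46 to 1.497, unadjusted p = 0.9803). Of 6 neutrophil markers tested the median was -0.19, but 0.30 without detergent A replicate 4 and 0.20 with limma's library weights. Their mean log2 CPM was 2.59 with detergent A and 2.68 with detergent B, so no direction held across these settings.

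Of 14 antimicrobial peptide genes the median was 0.05. The beta-defensin Defb6 had 178, 248 and 311 CPM with detergent A and 238, 315 and 422 CPM with detergent B, a difference of 0.38 (SE 0.16, 95% interval 0.05 to 0.72, unadjusted p = 0.0254). Of 17 gasdermin and inflammasome genes, the machinery of lytic cell death, 14 were higher with detergent B, with a median of 0.24. Gsdmc2 had the smallest p among them, with 0.316, 0.546 and 1.498 CPM and 0.814, 1.12 and 2.96 CPM and a difference of 1.05 (SE 0.38, 95% interval 0.26 to 1.84, unadjusted p = 0.0117), which was 0.697 without detergent B replicate 6.

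Of 12 mast cell genes, 9 were higher with detergent B and 3 lower, and 4 were higher at an unadjusted p under 0.05, where 1.79% of all genes were. These were the 4 granule proteases Tpsb2 (a tryptase), Mcpt4 and Cma1 (chymases) and Cpa3 (carboxypeptidase A3). The 3 lower genes, chosen for mention after their values were seen, were Hdc, the histamine-forming enzyme, at -0.56, the receptor gene Il1rl1 at -0.30 and the stem cell factor receptor gene Kit at -0.02, with unadjusted p of 0.203, 0.527 and 0.936. Mcpt4 (ENSMUSG00000061068, GRCm38 chromosome 14, 56059629 to 56062313) had 37.02, 49.2 and 53.5 CPM with PBS, 29.2, 37.7 and 43.9 CPM with detergent A and 30.1, 50.4 and 89.2 CPM with detergent B. Its log2 difference between detergents was 0.57 (SE 0.19, 95% interval 0.17 to 0.96, unadjusted p = 0.00754). Tpsb2 had 12.4, 15 and 19.98 CPM and 15, 21.99 and 34.9 CPM, a difference of 0.65 (SE 0.19, 95% interval 0.25 to 1.05, unadjusted p = 0.00302). Cma1, at 21.6, 25.6 and 31.9 CPM and 24.1, 36.5 and 59.1 CPM, differed by 0.55 (SE 0.19, 95% interval 0.16 to 0.94, unadjusted p = 0.00857), and Cpa3 by 0.51 (SE 0.21, 95% interval 0.07 to 0.96, unadjusted p = 0.0269). For Mcpt4 and Cpa3 the detergent A libraries lay close together while detergent B held the highest values, and the ranges overlapped. Against PBS, Mcpt4 differed by 0.22 (adjusted p = 0.505) with detergent B and -0.35 (adjusted p = 0.322) with detergent A, so PBS lay between the detergents. The list had between 3 (without detergent A replicate 4) and 5 (without detergent B replicate 1) members at an unadjusted p under 0.05 when 1 library was left out. In those fits 2.69% and 5.84% of all genes were at that threshold in either direction. Without detergent B replicate 4, the library with the highest mast cell level, the median of the 12 genes moved from 0.46 to 0.28 and the difference of Mcpt4 to 0.37. With limma's library weights the median was 0.20.

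Other immune lists also had higher estimates with detergent B. Of 17 dendritic and Langerhans cell genes, 15 were higher, with a median of 0.36, while the Langerhans cell gene Cd207 was lower, at -0.38 (SE 0.28, 95% interval -0.97 to 0.22, unadjusted p = 0.198). H2-DMa, which loads peptides onto MHC class II molecules, had 14.96, 21.4 and 27.98 CPM with PBS, 9.49, 13.4 and 24.5 CPM with detergent A and 14.6, 20.1 and 28.4 CPM with detergent B, a difference of 0.51 (SE 0.21, 95% interval 0.07 to 0.95, unadjusted p = 0.0244). Its partner H2-DMb1 differed by 0.36 (SE 0.17, 95% interval 0.0055 to 0.72, unadjusted p = 0.0469). The count at an unadjusted p under 0.05 was 2 of 17, and between 0 (without detergent A replicate 3) and 10 (without detergent A replicate 6) when 1 library was left out. Of 17 monocyte and macrophage genes, 14 were higher, with a median of 0.45 and none at an unadjusted p under 0.05. That median ranged from 0.28 (without detergent A replicate 3) to 0.62 (without detergent A replicate 6), and without detergent A replicate 6, when 7.39% of all genes were at that threshold, 6 of the 17 were. The lysosomal protein gene Cd68 had the smallest p of these, at 46.9, 74.3 and 118 CPM and 79.1, 90.7 and 127 CPM, a difference of 0.37 (SE 0.19, 95% interval -0.03 to 0.77, unadjusted p = 0.0677). Of 17 T cell genes, 13 were higher, with a median of 0.18 that was 0.035 without detergent B replicate 4, and Trac, the constant chain of the alpha beta receptor, differed by 0.66 (SE 0.39, 95% interval -0.15 to 1.47, unadjusted p = 0.104). Clec4b1, a lectin of dendritic cells, had 0.555, 1.002 and 2.14 CPM and 1.37, 2.55 and 3.89 CPM, a difference of 1.18 (SE 0.34, 95% interval 0.47 to 1.88, unadjusted p = 0.00253). Against PBS the medians of the dendritic cell list were -0.16 with detergent B and -0.49 with detergent A.

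**Figure D3:**
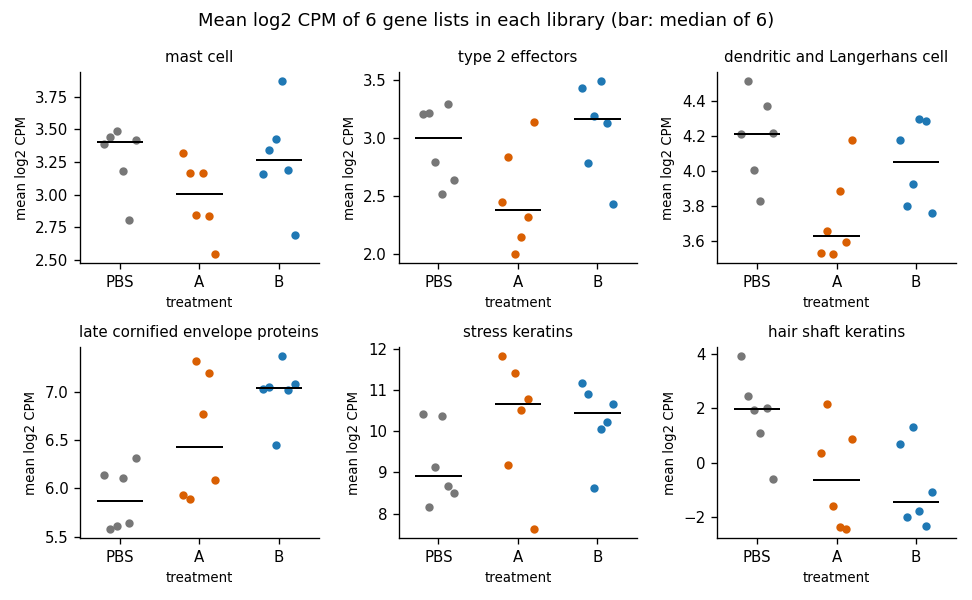
Mean log2 CPM of the genes of 6 lists (y axis) in each library by treatment (x axis), with a bar at the median of 6 libraries. The medians of the mast cell, type 2 effector and dendritic cell lists were lowest with detergent A, stress keratins spread from 7.62 to 11.83 with detergent A, and the detergent groups overlapped in all 6 lists.

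Hair follicle genes gave the lowest median in this fit. Of 27 hair shaft genes, 25 were lower with detergent B, with a median of -0.78, but none had an unadjusted p under 0.05 and 1 of the 27 intervals lay inside 2-fold. Krt31, a hair shaft keratin, had 0.0527, 1.304 and 15 CPM with detergent A and 0.184, 0.545 and 6.75 CPM with detergent B, a difference of -0.85 (SE 1.04, 95% interval -3.04 to 1.34, unadjusted p = 0.427). Krtap16-1, a hair keratin-associated protein gene at 0 in some libraries of both groups, led the list with an unadjusted p = 0.216. Of 12 inner root sheath genes the median was -0.36, and of 14 melanocyte genes -0.20. Tyrp1, a melanin synthesis enzyme, had 12.7, 70.2 and 133 CPM and 21.6, 45.96 and 94.7 CPM, a difference of -0.34 (SE 0.54, 95% interval -1.46 to 0.79, unadjusted p = 0.537). Without detergent A replicate 2, the library highest in hair genes, the hair shaft median was 0.24, the inner root sheath median 0.63 and the melanocyte median 0.11, so their direction rested on 1 library. With limma's library weights they were 0.0923, 0.54 and 0.21. Mean log2 CPM of the root sheath list was 3.52 with detergent A and 3.69 with detergent B and that of the melanocyte list 3.29 with detergent A and 3.36 with detergent B, the opposite order to the fitted medians. Ednrb led the melanocyte list at 0.33 and Krt74 the root sheath list at -0.59, both with intervals that include 0. Of 24 hair follicle growth regulators, 16 were lower with detergent B and 8 higher. Their median was -0.14, but 0.098 without detergent A replicate 2 and 0.12 with limma's library weights. In the fit to all libraries 1 of the 24, Fgf22, had an unadjusted p under 0.05, and 0 did without detergent A replicate 1. Fgf22, a growth factor of hair and epidermis, had 10.4, 14.02 and 23.4 CPM and 16.8, 21.1 and 25.1 CPM, a difference of 0.49 (SE 0.19, 95% interval 0.08 to 0.90, unadjusted p = 0.0205).

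Markers of deeper tissue were also higher with detergent B in most members. Of 19 skeletal muscle genes 18 were higher, with a median of 0.33, of 16 adipocyte genes 14, with 0.23, of 21 fibroblast and collagen genes 17, with 0.19, and of 14 endothelial genes 12, with 0.14. Myoglobin (Mb), the oxygen store of muscle, was the only one of these with an unadjusted p under 0.05 in the fit to all libraries. With 1 library left out the count reached 7 fibroblast and collagen genes (without detergent A replicate 2), 5 muscle genes (without detergent A replicate 4), 4 adipocyte genes (without detergent A replicate 6) and 3 endothelial genes (without detergent B replicate 1). In those fits, in that order, 4.14%, 2.69%, 7.39% and 5.84% of all genes were at that threshold in either direction. The medians ranged from 0.21 (without detergent B replicate 4) to 0.44 (without detergent A replicate 4) for muscle, from 0.10 (without detergent B replicate 4) to 0.30 (without detergent A replicate 6) for adipocytes, from 0.10 (without detergent A replicate 3) to 0.33 (without detergent A replicate 2) for fibroblasts and from 0.10 (without detergent B replicate 5) to 0.22 (without detergent A replicate 5) for endothelium. Mb had 111, 151 and 223 CPM with detergent A and 150.3, 198 and 394 CPM with detergent B, a difference of 0.49 (SE 0.23, 95% interval 0.01 to 0.96, unadjusted p = 0.0458), and 0.24 without detergent B replicate 4. Col1a1, the main collagen of dermis, had 990.2, 1717 and 2340 CPM with PBS, 433, 696 and 1436 CPM with detergent A and 841, 1008 and 1152 CPM with detergent B, a difference between detergents of 0.30 (SE 0.24, 95% interval -0.20 to 0.81, unadjusted p = 0.221). Adiponectin (Adipoq) differed by 0.23 (SE 0.18, 95% interval -0.15 to 0.61, unadjusted p = 0.222), and the adipocyte gene with the smallest p, Retn, by 0.63 (SE 0.31, 95% interval -0.03 to 1.29, unadjusted p = 0.0604). The smallest p of the endothelial list was that of Eng, a receptor of blood vessel endothelium, at 0.24 (SE 0.12, 95% interval -0.007 to 0.48, unadjusted p = 0.0562). Thbs1, a matricellular protein, ran against its list at -0.64 (SE 0.36, 95% interval -1.401 to 0.13, unadjusted p = 0.0964). The part of tissue makeup in the other differences was not tested.

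Of 25 nuclear genes of mitochondrial respiration, 24 were higher with detergent B, with a median of 0.12, and all 25 intervals lay inside 1.5-fold. Ndufb3, a subunit of complex I, had 42.5, 47.5 and 50.2 CPM and 48.1, 52.5 and 82.8 CPM, a difference of 0.28 (SE 0.11, 95% interval 0.06 to 0.51, unadjusted p = 0.0174), and Ndufa1, another, differed by 0.26 (SE 0.12, 95% interval 0.01 to 0.52, unadjusted p = 0.0414). Without detergent B replicate 4 the median was 0.02 and the count at an unadjusted p under 0.05 fell from 2 to 0, with Ndufb3 at 0.14 and Ndufa1 at 0.12. Without detergent B replicate 3 that count was 7, where 5.44% of all genes were at that threshold in either direction. Transcript length moved with the comparison: the median log2 difference was 0.07 in the fifth of genes with the shortest transcripts and -0.06 in the fifth with the longest. The median transcript was 1661 bases for the respiration list, 5588 for basal anchoring and 703 for the late cornified envelope genes. After subtracting the median of genes of like length, the medians of these 3 lists were 0.07, -0.20 and 0.32. Whether length had a part in single genes was not tested.

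Stress, rhythm and growth lists had medians near 0, though most clock and cell cycle genes were lower with detergent B. The medians were -0.0085 for 22 oxidative and xenobiotic response genes, 0.01 for 30 interferon-stimulated genes, -0.02 for 20 unfolded protein response genes, -0.07 for 19 clock genes and -0.05 for 24 cell cycle genes. In that order, 11 of 22, 17 of 30, 8 of 20, 4 of 19 and 6 of 24 genes were higher with detergent B. All 24 cell cycle intervals and all 19 clock intervals lay inside 2-fold. Cyp1a1, the standard target of the aryl hydrocarbon receptor, had 36.7, 46.4 and 58.5 CPM with detergent A and 29.99, 46.2 and 47.4 CPM with detergent B, a difference of -0.20 (SE 0.13, 95% interval -0.47 to 0.08, unadjusted p = 0.147). The proliferation marker Mki67 had 108, 222 and 335 CPM and 129.8, 206 and 264 CPM, with a difference of -0.13 (SE 0.24, 95% interval -0.62 to 0.37, unadjusted p = 0.602). Sdf2l1, a protein of the endoplasmic reticulum induced by unfolded proteins, was the stress gene with an unadjusted p under 0.05, at 0.27 (SE 0.10, 95% interval 0.06 to 0.48, unadjusted p = 0.0149). The interferon-induced gene Oasl1, the clock gene Clock and the replication gene Mcm3 led their lists at 0.29, -0.21 and -0.14, all with intervals that include 0.

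Of 20 immediate early genes, which respond within minutes to stimuli and to tissue handling, 15 were lower with detergent B, with a median of -0.15, and none had an unadjusted p under 0.05. Without detergent B replicate 1, 6 of the 20 did, where 5.84% of all genes did, and without detergent A replicate 4 the median was 0.019. Fos had 15.3, 30.9 and 61.5 CPM and 7.95, 17.2 and 40.5 CPM, a difference of -0.77 (SE 0.42, 95% interval -1.66 to 0.12, unadjusted p = 0.0845). Of 13 glucocorticoid and metallothionein genes the median was -0.12 (-0.27 without detergent B replicate 2), and Zbtb16, a transcription factor induced by glucocorticoids, had 18.1, 33.2 and 63.8 CPM with PBS, 22.7, 28.8 and 38.8 CPM with detergent A and 8.38, 17.5 and 27.2 CPM with detergent B. It differed between detergents by -0.71 (SE 0.28, 95% interval -1.298 to -0.13, unadjusted p = 0.0192), with all 6 detergent B libraries below the detergent A mean. Egf, the epidermal growth factor gene, differed by 0.46 (SE 0.21, 95% interval 0.03 to 0.89, unadjusted p = 0.0369), while 8 of its list of 12 ligands and receptors were lower. Of 19 retinoid genes, 9 were higher and 10 lower with detergent B, with a median of -0.06. At an unadjusted p under 0.05, 2 of them were lower, Aldh1a3 and Stra6, and 0 without detergent B replicate 5. The retinoic acid enzyme Aldh1a3 had 6.66, 14.2 and 35.5 CPM and 5.17, 7.86 and 15.5 CPM, a difference of -0.87 (SE 0.36, 95% interval -1.61 to -0.12, unadjusted p = 0.0252). Without detergent A replicate 1 it was -0.46, and the largest p with 1 library left out was 0.144. Stra6, the receptor for retinol-binding protein, had 1.39, 2.99 and 4.397 CPM and 1.58, 1.91 and 2.49 CPM, a difference of -0.57 (SE 0.24, 95% interval -1.08 to -0.07, unadjusted p = 0.0271). Of 16 sebaceous gland genes the median was -0.02, and Dgat2, a triglyceride synthase, had the smallest p, 0.155.

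**Figure D4:**
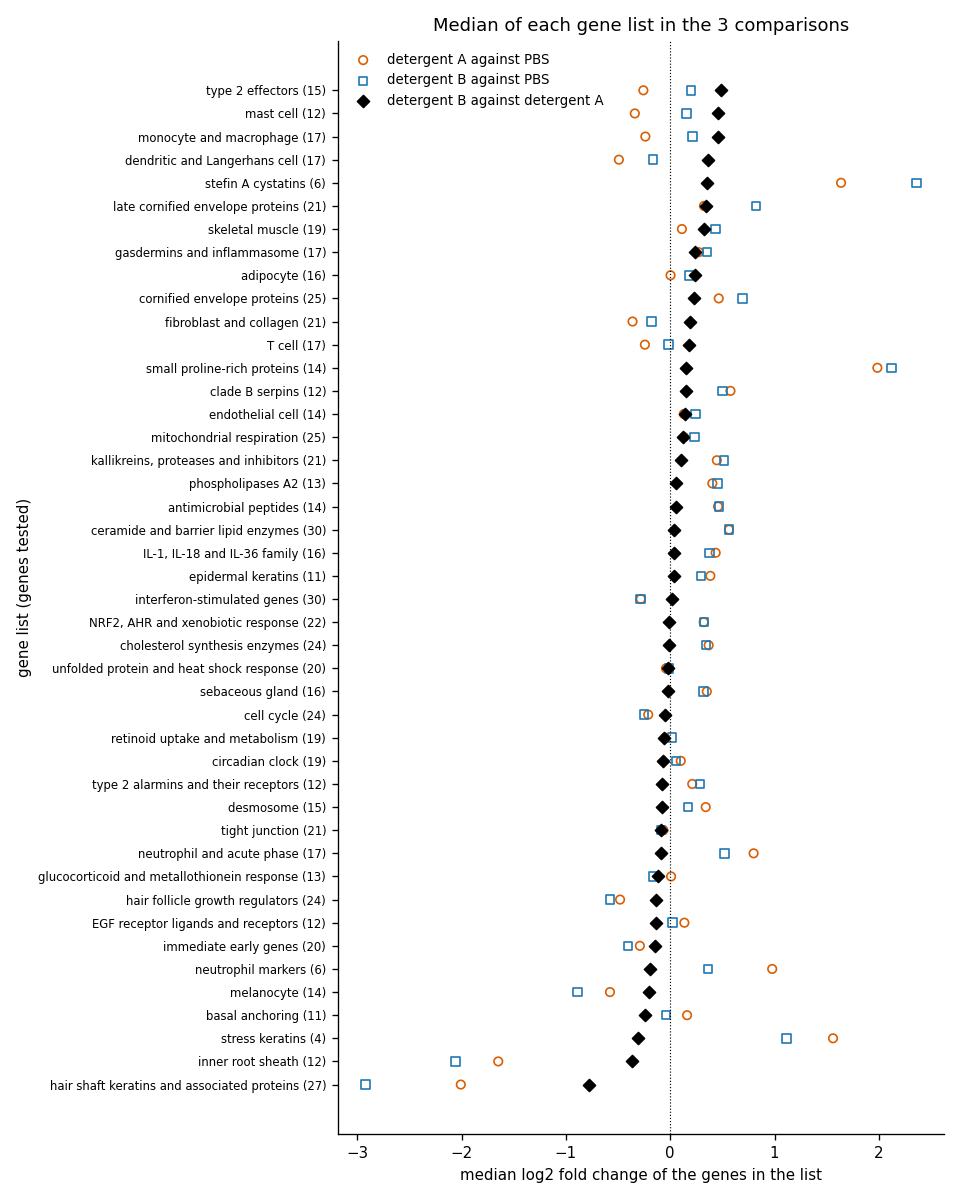
Median log2 fold change (x axis) of each of 44 gene lists (y axis, genes tested in brackets) for detergent B against detergent A (diamonds), detergent A against PBS (circles) and detergent B against PBS (squares), with the median of all genes for detergent B against A as a dotted line. The diamonds run from -0.78 (hair shaft) to 0.49 (type 2 effectors), and 34 of the 44 lie within 0.25 of 0.

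The genes with the smallest p-values came from no single list. Chil1, a chitinase-like protein of inflamed tissue, had 19.99, 34.2 and 51.6 CPM with PBS, 31.9, 42.4 and 74.9 CPM with detergent A and 58.4, 79.9 and 122 CPM with detergent B. The difference between detergents was 0.89 (SE 0.24, 95% interval 0.38 to 1.403, unadjusted p = 0.00183), and against PBS it was 1.29 (adjusted p = 0.0159) with detergent B and 0.40 (adjusted p = 0.388) with detergent A. Thbs4, a matrix protein of tendon and muscle, had 6.41, 22.9 and 28.7 CPM and 21.2, 45.6 and 66.5 CPM, a difference of 1.11 (SE 0.31, 95% interval 0.47 to 1.76, unadjusted p = 0.00188). Gamt, an enzyme of creatine synthesis, had 3.97, 6.31 and 8.07 CPM and 7.13, 10.2 and 11.3 CPM, a difference of 0.57 (SE 0.16, 95% interval 0.24 to 0.90, unadjusted p = 0.00197). Als2cr12, with 1.01, 1.37 and 1.801 CPM against 1.697, 2.33 and 2.68 CPM, had the smallest p of all, at 0.72 (SE 0.18, 95% interval 0.34 to 1.097, unadjusted p = 0.000766), and an adjusted p of 0.989. Celf5, an RNA-binding protein gene, had 0.6104, 0.8703 and 1.27 CPM and 1.104, 1.52 and 2.63 CPM, with unadjusted p = 0.00251. In each of these 5 genes, the mean of detergent A was exceeded by all 6 detergent B libraries.

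In the other direction, Nnat, the neuronatin gene, had 1.61, 5.802 and 9.27 CPM with detergent A and 0.578, 2.97 and 3.78 CPM with detergent B, a difference of -1.33 (SE 0.44, 95% interval -2.26 to -0.40, unadjusted p = 0.00762). Havcr2, the immune checkpoint receptor TIM-3, had 3.81, 5.47 and 8.72 CPM and 3.25, 3.75 and 5.09 CPM, a difference of -0.58 (SE 0.17, 95% interval -0.94 to -0.22, unadjusted p = 0.00332). Spin4 was at 1.998, 2.67 and 3.84 CPM and 1.41, 1.73 and 2.25 CPM, a difference of -0.66 (SE 0.19, 95% interval -1.05 to -0.27, unadjusted p = 0.00228). Ptgs2, the inducible cyclooxygenase of prostaglandin synthesis, had 4.41, 7.47 and 15.4 CPM with PBS, 1.86, 22.1 and 38.7 CPM with detergent A and 4.89, 8.83 and 17.2 CPM with detergent B. It differed by -1.16 (SE 0.50, 95% interval -2.202 to -0.12, unadjusted p = 0.0304) between detergents. Both the lowest and the highest Ptgs2 library belonged to detergent A. The kinase gene Uhmk1 and the ubiquitin ligase gene Uhrf2 differed by -0.21 and -0.17, with unadjusted p = 0.00704 and 0.00414, Grid2ip by -0.72 with unadjusted p = 0.00747, and the kinesin gene Kif17 by -1.02 with unadjusted p = 0.0498.

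The libraries of the 2 groups did not overlap for 10 genes, 5 with every detergent B library above every detergent A library (0.0297%) and 5 below (0.0297%). Those above were Rom1, Fam149a, Cog7, Efcab6 and Gm21970, and those below included Map3k2, Mre11a, Tmem229a and Mtfmt. Cog7, Efcab6, Gm21970 and Mtfmt, like Dsc2, Dsg3, Ccl22, H2-DMb1, Mcpt4, Cma1, Ndufa1 and Stra6, were outside the naming rule and chosen after their values were seen. Rom1, known as a membrane protein of photoreceptors (ENSMUSG00000071648, GRCm38 chromosome 19, 8927391 to 8929356), had 2.49, 3.296 and 3.65 CPM with detergent A and 3.89, 4.497 and 5.13 CPM with detergent B, a difference of 0.48 (SE 0.13, 95% interval 0.21 to 0.75, unadjusted p = 0.00159). Fam149a had 3.67, 4.32 and 4.94 CPM and 5.13, 5.82 and 6.79 CPM, a difference of 0.46 (SE 0.13, 95% interval 0.19 to 0.73, unadjusted p = 0.002204). The largest of the 10 in size was that of Efcab6, 0.67, at under 1 CPM in all 12 libraries. Other differences were 0.40 for Gm21970, 0.16 for the Golgi gene Cog7, -0.51 for Tmem229a, -0.22 for the DNA repair nuclease Mre11a, -0.18 for the mitochondrial gene Mtfmt and -0.18 for the kinase gene Map3k2. None of the 10 was in a gene list, but the lists held only 736 of the 16836 genes tested, so this says little about the lists.

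**Figure D5:**
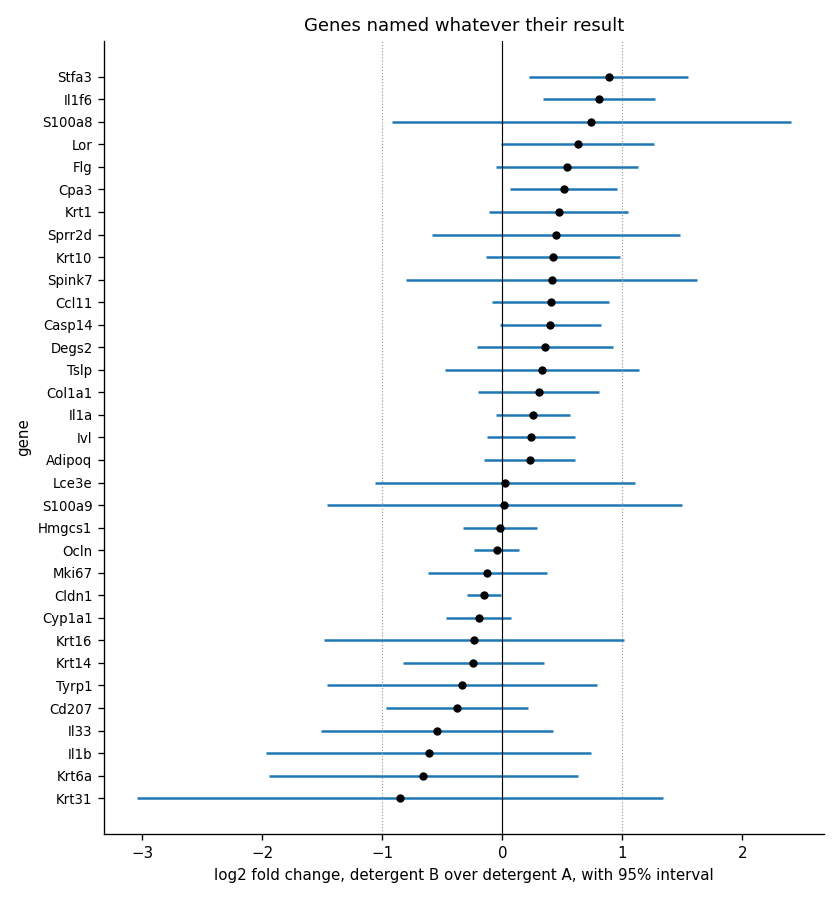
Log2 fold change of detergent B over detergent A (x axis; points, estimates; bars, 95% intervals; dotted lines, 2-fold) for the 33 skin genes (y axis) named whatever their result. The intervals of Il1f6, Stfa3, Cpa3 and Cldn1 exclude 0, and the widest belong to Krt31, S100a8, S100a9, Il1b, Krt6a and Krt16.

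The spread between libraries was larger with detergent A in most lists. The SD of log2 CPM was larger with detergent A for 55.6% of genes, with a median over genes of 0.274 with detergent A, 0.255 with detergent B and 0.210 with PBS. Of the 44 lists, 38 had the larger SD of their mean log2 CPM with detergent A. For stress keratins the SD was 1.56 with detergent A and 0.908 with detergent B, for small proline-rich genes 1.24 and 0.615, and for neutrophil markers 1.31 and 0.5895. These differences in spread were not tested. Detergent A replicate 6 had the lowest stress keratin level of all 18 libraries, 7.62 on the log2 scale, against 9.18 to 11.83 in the other detergent A libraries. Without it, 642 genes were higher and 607 lower at an unadjusted p under 0.05, 7.39% of genes, and the smallest adjusted p was 0.660, so there too no gene passed.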

How the data were processed

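RNA from skin was sequenced in 18 libraries, 6 each for PBS, detergent A and detergent B. The authors deposited whole-number counts of reads per gene, without normalization judging from totals that differ between libraries. STAR, featureCounts and the GRCm38.p5 build are named per the submitters' processing notes, and the annotation, strand setting and handling of multiply mapped reads are not stated there, so near-identical, overlapping and antisense genes are uncertain. Of 41605 gene IDs, 41519 matched GENCODE M21.

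Testing used edgeR 4.0.16 under R 4.3.3 on the counts (filterByExpr, TMM, robust quasi-likelihood fit of group to all 18 libraries, 15 residual degrees of freedom, Benjamini-Hochberg adjustment over 16836 genes, which held at least 99.89% of each library's counts). The SE is the log2 fold change divided by the root of F, and 95% intervals use the t quantile. CPM values use TMM-scaled totals, and mean log2 CPM a prior count of 2. The 17312623 to 29599018 counts per library set the counting precision. No pair of the 66 among the 12 detergent libraries agreed within sampling noise, with a chi-square of at least 13.1 per gene. The script was tested on simulated data.

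Named genes reached a group mean of 1 CPM or more and had no predicted, Rik or pseudogene name for the 10 smallest p-values and, among unadjusted p under 0.05, the 5 largest changes in each direction. The rule added the smallest p of each of 44 lists and 33 skin genes whatever their result, 94 genes in all. Another 13 were added, as were 3 mast cell genes given only by their estimates, and a few of all these genes are not reported here. The comparison, the gene lists and these rules were chosen with earlier results of these data known. Alternatives were DESeq2 1.42.0, limma 3.58.1 with library weights, other size factors, no filter, only the 12 detergent libraries, a replicate block, a non-robust fit, the hair keratins score as a covariate and each library left out. Corrections for transcript length and GC content in 20 bins were added after seeing the data. No library was left out.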

Additional observations from a re-analysis of the deposited data

Results flagged for a closer look

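Single libraries stood far from the other 5 of their detergent group in 15 of 302 tests, 4.97%, made on log2 CPM of the 107 genes named and on the mean log2 CPM of the 44 lists (gap to the nearest library over the range above 0.625). Chance gives about 1 in 20, so their number is near what chance gives. With detergent B, replicate 3 was apart for Cldn1, at 392.1 CPM against 333.3 to 350.5 CPM in the others, for Krt14, at 3944 CPM against 6767 to 9235 CPM, and for Krt16, at 526.8 CPM against 1720 to 3222 CPM. Its mean log2 CPM over the kallikrein list was 6.62, against 6.94 to 7.05. Replicate 4 was apart for Ccl22, at 31.4 CPM against 9.08 to 14.4 CPM, for Lama3, at 53.7 CPM against 91.2 to 118.1 CPM, and for Ndufb3, at 82.8 CPM against 48.1 to 58.0 CPM. Replicate 5 was apart for Saa1, at 7.57 CPM against 1.25 to 2.24 CPM, for Saa2, at 4.41 CPM against 1.104 to 1.66 CPM, and for Mcm3, at 31.8 CPM against 51.6 to 64.9 CPM. Replicate 1 had 6.20 for the immediate early genes against 5.11 to 5.51.

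With detergent A, replicate 1 was apart for Nnat, at 1.61 CPM against 4.92 to 9.27 CPM, and for the tight junction list, at 4.50 on the log2 scale against 4.75 to 4.88. Replicate 3 had Thbs4 at 6.41 CPM against 17.3 to 28.7 CPM. Replicate 5 had Tmem229a at 7.27 CPM against 5.70 to 6.13 CPM.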

How the results depend on the processing

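The count past an adjusted p of 0.05 was 0 under all 26 alternatives, and the smallest adjusted p was 0.660. The count at an unadjusted p under 0.05 moved: 514 higher and 450 lower without the low-count filter (3.44% of 28046 genes), 189 and 128 with only the 12 detergent libraries (1.94% of 16349). With 1 library left out it ranged from 162 to 642 higher (fewest without detergent B replicate 4, most without detergent A replicate 6) and from 134 to 607 lower (fewest without detergent A replicate 1, most without detergent A replicate 6). With a replicate block on the 12 detergent libraries, 376 genes were higher and 224 lower. Same-numbered libraries deviated with correlations from -0.319 to 0.546. Detergent A replicates 1 and 5 correlated best with the same number of detergent B, and replicates 2, 3, 4 and 6 with another. The labels do not say what the numbers mean, so these correlations cannot decide whether they pair the samples.

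Of 107 genes, 96 kept the sign of their log2 fold change under every alternative. The other 11 all had an unadjusted p over 0.05. With 1 library left out, Cd207 ranged from -0.52 to 0.0338, Hmgcs1 from -0.0756 to 0.0769, Il1b from -1.23 to 0.26, Krt16 from -0.48 to 0.0782, Krt31 from -1.92 to 0.75, Krt74 from -1.68 to 0.92, Lce3e from -0.22 to 0.39, Mki67 from -0.27 to 0.0327, S100a8 from -0.33 to 1.45 and S100a9 from -0.79 to 0.66. The sign also changed with library weights for Krt31 (0.0923), Krt74 (0.19), Mki67 (0.0176) and Tyrp1 (0.15), with the hair score as a covariate for Krt31 (0.13), Krt74 (0.25), S100a9 (-0.27) and Tyrp1 (0.14), with the replicate block for Krt16 (0.0877) and S100a9 (-0.0270) and with only the 12 detergent libraries for S100a9 (-0.00657). The cause was not tested. Of the 44 list medians, 23 kept their sign under every alternative, and none moved by 1 SD of its library values. Intervals spanned more than a 2-fold range for many of the genes named. Among them were Saa2, Gsdmc2 and Retnlg, at low counts, and Krt6a and Krt16, at high counts. The part of depth in their width was not tested.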
